A study of Drosophila melanogaster with 28 samples.

Results

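In the testis of Drosophila melanogaster males without Mettl1, 117 transcripts had less RNA and fewer ribosome footprints than in wild type (WT) males. They were chosen by their own values, from 18851 transcripts in all, and the choice used 3 of the study's contrasts, namely the footprints of 2 testis sample sets and the RNA-seq of set 1. A transcript was a member when its mean WT footprint level was at least 10 CPM (counts scaled to a common library total) in both testis sets and when its change was -1 or less in each of the 3 contrasts. The change is log2((mean knockout CPM + 1)/(mean WT CPM + 1)), so it understates the change of low transcripts. Of the 18851 transcripts, 9254 reached the minimum footprint level, and these are called eligible below. Because members were selected on them, the values of the 3 contrasts are given without a test. RNA-seq of testis set 2 and all body libraries took no part in the choice and were tested.

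Mettl1 is the catalytic subunit of the complex that places 7-methylguanosine (m7G) in the variable loop of a subset of tRNAs, a modification known to protect those tRNAs and to aid decoding. Fly sperm are made in the testis from germline stem cells through spermatogonia and spermatocytes to elongating spermatids. Much of the mRNA that spermatids use is transcribed earlier, in spermatocytes, and is stored and translated later. Ribosome profiling sequences the pieces of mRNA that ribosomes protect from nuclease, called footprints. A footprint level therefore depends on how much of a transcript is present as well as on how densely ribosomes occupy it, and RNA-seq of the same tissue measures the first of these.

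The WT flies were y1 w1118 and the others were labelled Mettl1-KO, for which the protocol names the allele Mettl1KO1. Testes came from adult males aged 2 to 3 days, 600 pairs per sample, and were dissected with cycloheximide, which arrests ribosomes, at 100 µg/ml. Each testis set held 2 WT and 2 knockout libraries of footprints and as many of RNA-seq. Body was sampled in WT and in lines KO1 and KO2, with 2 libraries of footprints and 2 of RNA-seq for each, making 28 libraries and 14 groups in the series. How body samples were collected, and whether they still contained testes, is not stated. In the testis titles the number next to the genotype was taken to mark the replicate, although it could stand for a knockout line. Both knockout footprint files of set 2 are named after line KO2, whereas their titles differ in that number and the protocol names only Mettl1KO1, so the line behind the testis knockouts is uncertain. Titles and file names do not conflict on which set 2 footprint libraries are WT and which are knockout, and titles were used. Nothing in the labels says that replicates were separate dissections or cultures, so p-values measure the spread between these samples, which may be technical.

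Depth differed between assays. Set 1 RNA-seq libraries held 11486631 to 17707128 counts, against 149745 to 209202 for set 2 and 49608 to 95749 for body. Set 1 footprint libraries held 410019 to 3386070 counts, set 2 ones 6732034 to 13217075 and body ones 2033209 to 9936190. Across the 18851 transcripts, which are not independent replicates, WT RNA-seq and WT footprint levels had a Spearman's rho of 0.92 in set 1, 0.43 in set 2 and 0.31 in body. Identifiers could not be paired with gene names here, so the genotype was not checked against the targeted transcript, and members are described by identifier, level, length and rank. Because testis is a mixture of cell types, fewer cells of a type and less RNA per cell cannot be told apart in any of these values.

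Of the 9254 eligible transcripts, 8.64% were at -1 or less in set 1 footprints, 6.15% in set 2 footprints and 8.08% in set 1 RNA-seq. The 117 members had a median change of -1.47 in set 1 footprints, ranging from -4.66 to -1.02. In set 2 footprints their median was -1.76, ranging from -5.90 to -1.01. In set 1 RNA-seq it was -1.87, ranging from -3.61 to -1.003. The medians over all eligible transcripts were 0.16, 0.10 and -0.21 in the same order. Changes of -2 or less were held by 23 members in set 1 footprints, by 40 in set 2 footprints, by 48 in set 1 RNA-seq and by 14 in all 3. The member nearest to the threshold had changes of -1.32, -1.27 and -1.003, and the nearest transcript outside it had -1.30, -1.24 and -0.999. In 22 members the weakest of the 3 changes was above -1.1, and 37 other transcripts had their weakest change between -1 and -0.9, so the edge of the set is not a gap in the data.

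**Figure D1:**
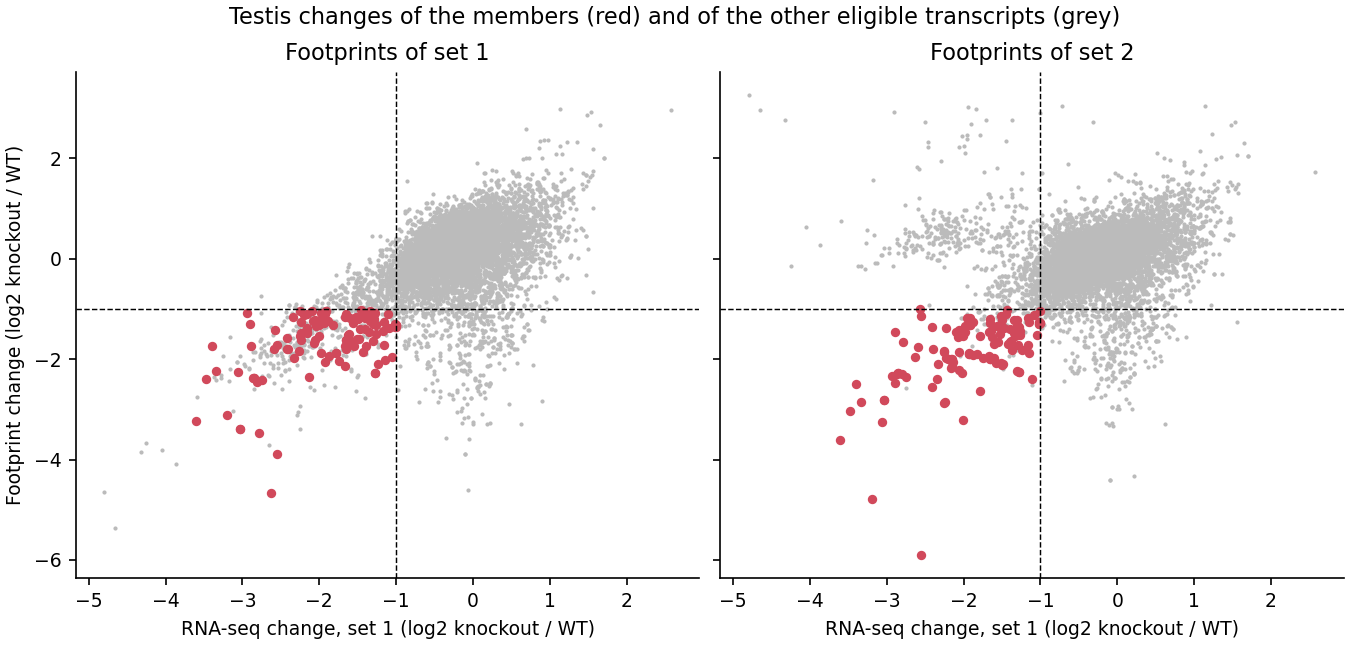
Footprint change in set 1 (left) and set 2 (right) against RNA-seq change in set 1, each as log2 knockout over WT, for the 117 members (red) and the other eligible transcripts (grey), with dashed lines at the thresholds of -1. A grey group lies below the line on the left and above 0 on the right, at RNA-seq changes near -2.

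The second testis set narrowed the choice among transcripts that were low in RNA-seq. In set 1, 391 eligible transcripts were at -1 or less in both footprints and RNA-seq. Of these, 117 were also at -1 or less in set 2 footprints and became members, and 274 were not. The 274 resembled the members in set 1, with medians of -1.67 in footprints and -2.16 in RNA-seq. Their median in set 2 footprints was 0.46, and 225 of them were above 0 there. They lie in the group of grey points that is low in the left panel of the plot of testis changes and high in its right panel. Transcripts with at least 10 times more WT footprints in testis set 2 than in WT body made up 2.55% of the 274 and 47.9% of the members. WT footprints of set 2 enter both this ratio and the set 2 change that split the groups. The 2 are therefore not independent, and the difference was not tested.

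As a group the members took up a similar share of the footprint reads in both testis sets, whereas their share of RNA-seq reads was lower in WT of set 2 than in WT of set 1. Near-identical neighbours can count the same reads, and the 117 members formed 102 loci when neighbours with matching counts were merged, with 24 members in 9 merged loci. With 1 transcript per locus, the members summed to 15519 and 15237 CPM in the WT footprint libraries of set 1 and to 5136 and 5347 CPM in the knockouts. In set 2 the WT sums were 15902 and 16103 CPM and the knockout sums 4523 and 4290 CPM. In set 1 RNA-seq they were 8143 and 8178 CPM in WT and 2261 and 2305 CPM in knockouts. The 2 replicates of each group lay close together. The gap between WT and knockout sums follows from the choice, which required lower knockout values in each of these contrasts.

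**Figure D2:**
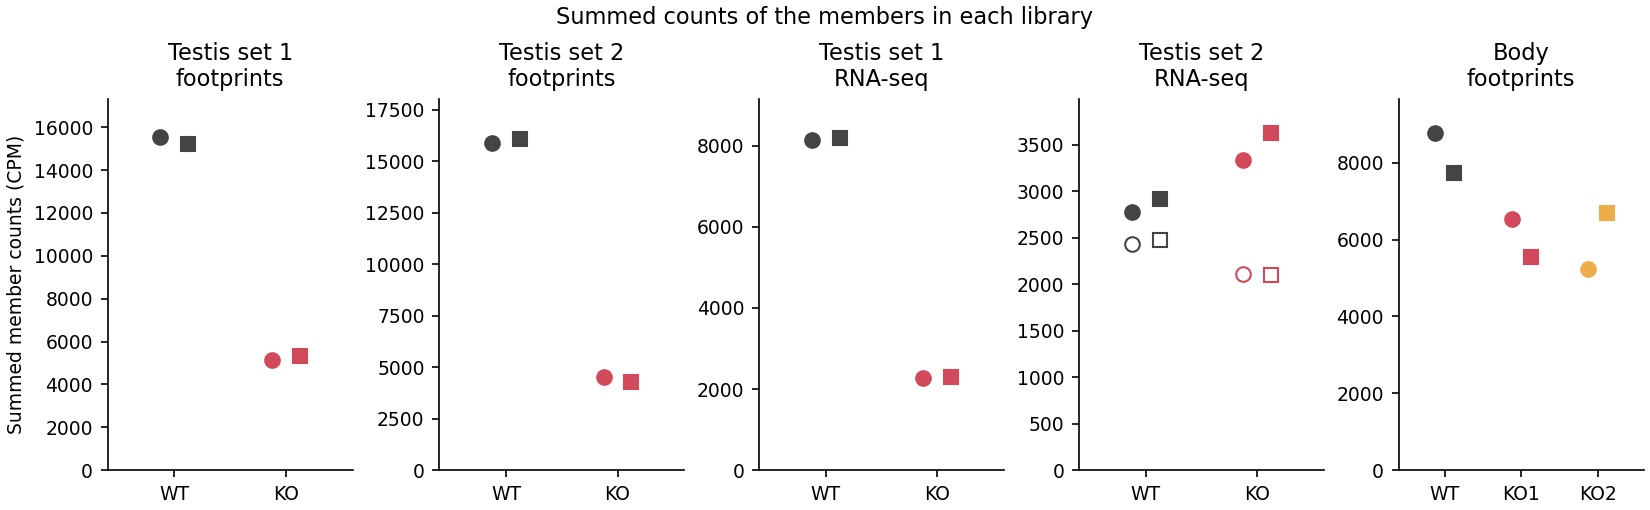
Summed counts of the members (CPM, 1 transcript per locus) in each library, with WT in grey, testis KO and body KO1 in red and body KO2 in yellow, replicate 1 as circles and replicate 2 as squares. Open symbols in set 2 RNA-seq leave out 1 member, without which the knockout sums are 2113 and 2097 CPM and lie below the WT sums of 2436 and 2478 CPM.

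The member with the highest WT footprint level, as a mean over both testis sets, was FBtr0346625, whose value in the length column is 632. Its footprints measured 2708 and 2756 CPM in set 1 WT and 776 and 877 CPM in set 1 knockouts. In set 2 they measured 999 and 881 CPM in WT and 401 and 449 CPM in knockouts. RNA-seq of set 1 gave 1087 and 1158 CPM in WT and 175 and 207 CPM in knockouts. WT and knockout libraries were apart in all 3 contrasts, which are those used in the choice. The WT footprint level of set 1 was above that of set 2, where 3 other members had a higher WT level. In body, WT footprints of FBtr0346625 measured 2385 and 2181 CPM, below the testis level of set 1 and above that of set 2. They measured 1558 and 1284 CPM in KO1 and 1328 and 1935 CPM in KO2. All 4 body knockout libraries were below both WT libraries, but the difference did not pass the threshold in either line, with edgeR log2 changes of -0.67 (SE 0.259, adjusted p = 0.237) and -0.48 (SE 0.259, adjusted p = 0.446). In body RNA-seq its edgeR log2 changes were 0.06 (SE 0.382, adjusted p = 0.963) in KO1 and -0.38 (SE 0.407, adjusted p = 0.707) in KO2. RNA-seq of testis set 2 gave 33.4 and 43.8 CPM in WT and 4.78 and 26.7 CPM in knockouts. These values rest on 6 and 7 WT counts and 1 and 4 knockout counts, too few for the test.

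Levels of different members were compared per unit of the length column, whose unit is not stated. By WT set 2 footprints per unit of length, the members ranged from 0.0114 to 15.6 CPM with a median of 0.175, against 0.103 for eligible transcripts. WT set 2 footprints also entered the choice, so these medians are not independent of it. Of the 102 loci, 18 were above 1. The 3 densest were listed next to each other and had short entries of 90, 98 and 110. The densest had set 2 footprints of 1220 and 1596 CPM in WT and 249 and 251 CPM in knockouts. RNA-seq of set 1 gave 129 and 120 CPM in WT and 10.4 and 11.4 CPM in knockouts. The second had 1200 and 1568 CPM in WT footprints of set 2 and 440 and 435 CPM in knockouts, with RNA-seq at 156 and 144 CPM in WT and 54.7 and 57.8 CPM in knockouts. These neighbours thus had similar WT levels, while the knockout RNA-seq level of the second was above that of the first in both replicates. The densest was also lower in body footprints, at 37.9 and 41.0 CPM in WT, 8.64 and 11.7 CPM in KO1 and 4.89 and 5.41 CPM in KO2.

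Long entries were scarcer among members than among eligible transcripts. The length column had a median of 381 over members and 446 over eligible transcripts. Entries of 200 or less made up 26.5% of members and 18.2% of eligible transcripts, and entries over 1000 made up 1.71% (2 members) and 16.3%. The median was 282 over the 298 eligible transcripts with footprint changes of -1 or less in both sets and an RNA-seq change above -1. The median was 297.5 over the 274 that were low in set 1 only, so shorter entries were not particular to the members. Whether short length moved with the loss of RNA and footprints beyond this was not tested.

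FBtr0305657 had the lowest mean footprint change and is 1 of the 2 members with a length entry over 1000. In set 2 its footprints went from 1010 and 600 counts in WT to 5 and 2 counts in knockouts, or from 76.4 and 89.1 CPM to 0.543 and 0.264 CPM, a ratio of 205. In set 1 it had 14 and 19 footprint counts in WT and 0 in both knockouts, at least 7.06-fold lower when 3 counts over both knockout libraries are taken as the floor. Its 2 WT replicates there differed, at 4.13 and 23.6 CPM. Its RNA-seq counts in set 1 were 82 and 79 in WT and 3 and 6 in knockouts. In body, FBtr0305657 had 2 and 35 footprint counts in WT and 0 in all 4 knockout libraries. These counts were too low for it to enter the body test.

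A change of -3 or less in all 3 contrasts was held by 2 members. The shorter, with a length entry of 153, had set 2 footprints of 63.0 and 54.1 CPM in WT and 1.52 and 0.791 CPM in knockouts. RNA-seq of set 1 gave 10.4 and 11.2 CPM in WT and 0.226 and 0.347 CPM in knockouts, from 4 and 5 knockout counts. The longer, with an entry of 850, had the lowest RNA-seq change of the set at -3.61. It measured 15.1 and 12.7 CPM in WT RNA-seq and 0.169 and 0.278 CPM in knockouts, and its set 2 footprints measured 16.4 and 15.1 CPM in WT and 0.217 and 0.527 CPM in knockouts. Both were near 0 in the knockouts of the 3 contrasts that chose them. In set 2 RNA-seq the shorter had 0 counts in all 4 libraries, and the longer had 2 and 4 counts in WT and 4 and 5 in knockouts, or 11.1 and 25.03 CPM and 19.1 and 33.4 CPM.

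**Figure D3:**
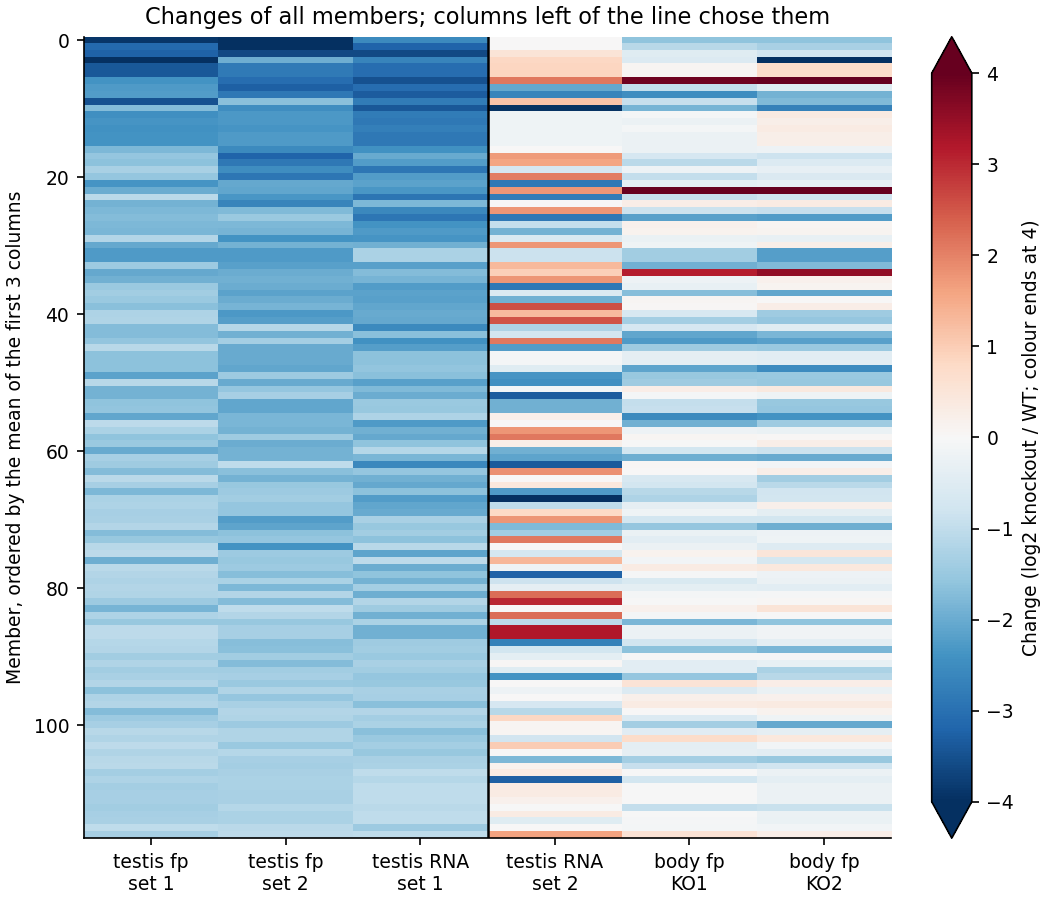
Change of each of the 117 members (rows, ordered by the mean of the first 3 columns) as log2 knockout over WT, in testis footprints (fp) of sets 1 and 2, testis RNA-seq of sets 1 and 2, and body footprints of KO1 and KO2; colours end at changes of 4 in size. The columns left of the line chose the members and are low throughout, set 2 RNA-seq is mixed in sign, and the body columns are mostly pale with a lower subset and 3 high rows.

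Footprint and RNA-seq changes of set 1 were compared within each member. The footprint change minus the RNA-seq change had a median of 0.29 over members and 0.42 over eligible transcripts. It was above 0 in 75 of the 117 members (64.1%) and in 77.3% of eligible transcripts. The sign depends on the scaling, since with TMM library sizes the medians were -0.12 over members and -0.12 over eligible transcripts, and 39.3% and 39.8% were above 0. On plain CPM it was 1 or more in 12 members and -1 or less in 4. At the upper end, a member with a length entry of 180 had RNA-seq levels of 64.9 and 60.1 CPM in WT and 7.17 and 7.43 CPM in knockouts, while its footprints went from 15.7 and 17.4 CPM to 7.32 and 7.16 CPM. Its knockout footprint values rest on 3 and 8 counts. In WT testis of set 1, members had a median log2 ratio of footprint to RNA-seq CPM of 0.95, against 0.02 for eligible transcripts and 0.92 for the 274 transcripts that were low in set 1 but not in set 2 footprints. The ratio was above 0 in 86 of 117 members (73.5%) and in 50.7% of eligible transcripts. The choice required a minimum WT footprint level and none for RNA-seq, in members and eligible transcripts alike. Both WT levels also enter the set 1 changes that chose the members, so the ratio is not independent of the choice.

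RNA-seq of testis set 2 took no part in the choice, and in it the members spread to both sides of 0. The median change was -0.03 over the 117 members and 0.07 over eligible transcripts, and 60 members were below 0. Both knockout libraries were below both WT libraries in 23 members (19.7%), against 15.5% of eligible transcripts. These libraries were shallow, with a median of 7 counts per member over all 4 libraries and 0 counts for 10 members. Only 11 members passed the low-count filter of edgeR and 106 were not tested. Of the 11, 0 were called lower, where 10.2% of 2969 transcripts tested were, and 2 were called higher, where 10.1% were. At an unadjusted p under 0.05, edgeR also had 0 lower and 2 higher, and DESeq2 called 0 lower and 1 higher. The edgeR log2 changes of the 11 ranged from -0.82 to 1.83, so none reached -1. In set 1 RNA-seq all members reach -1 by the choice, but on plain CPM with a pseudocount of 1. With TMM scaling, which edgeR also used, 96 of the 117 were at -1 or less in set 1. Of the 9 member loci with at least 40 counts over the 4 libraries, 4 were lower in knockouts and the median change was 0.05. For the 106 members that were not tested, a loss of the size seen in set 1 was not detectable at these counts. WT levels also differed between the sets, and whether depth had a part in this was not tested. The median WT RNA-seq level over members was 44.8 CPM in set 1 and 8.70 CPM in set 2, against 42.1 and 15.0 CPM over eligible transcripts. Across the 18851 transcripts, WT RNA-seq levels of the 2 sets had a Spearman's rho of 0.50.

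The larger of these calls was a member with a length entry of 765, at 340 and 438 CPM in WT and 1219 and 1523 CPM in knockouts of set 2 (log2 change 1.83, SE 0.208, edgeR adjusted p = 0.000407). In set 1 RNA-seq the same member measured 43.0 and 44.4 CPM in WT and 14.8 and 13.8 CPM in knockouts. The second call, at a length entry of 161, had 61.3 and 50.1 CPM in WT and 153 and 194 CPM in knockouts (log2 change 1.63, SE 0.392, edgeR adjusted p = 0.0160), from 19 WT counts. Knockout and WT libraries did not overlap for either, and the direction was opposite to set 1. The first call also decided the summed level. With it the members summed to 2776 and 2916 CPM in WT and 3332 and 3619 CPM in knockouts, and without it to 2436 and 2478 CPM and to 2113 and 2097 CPM.

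In body footprints a subset of the members was lower in the knockout lines. KO1 and KO2 were compared with the same 2 WT libraries, so their results are not independent. The low-count filter kept 93 members and left out 24. In KO1, edgeR called 23 of the 93 lower (22 loci) where 2.13% of 13840 transcripts tested were, and 3 higher where 1.02% were. In KO2, 27 were called lower (25 loci) where 2.86% were, and 3 higher where 1.71% were. In both lines 20 members were lower, and in either line 30. The edgeR changes of those 20 had a median of -2.22 in KO1, ranging from -3.29 to -1.49, and of -2.35 in KO2, ranging from -4.81 to -1.75. Over all 117 members the median body change was -0.37 in KO1 and -0.32 in KO2, against -0.06 for eligible transcripts in each line. The count of lower members was 7 in KO1 and 12 in KO2 without WT replicate 2, 11 in KO1 without either KO1 replicate, and 12 in KO2 without KO2 replicate 1. With DESeq2 it was 14 in KO1 and 18 in KO2.

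Most of the lower calls were members with far more WT footprints in testis than in body. A split by the WT footprint ratio of testis set 2 over body was made after the values were seen. The ratio was at least 10 in 56 members (47.9%), against 21.99% of eligible transcripts, and below 1 in 21 members (17.9%), against 29.9%. WT footprints of testis set 2 enter both the ratio and the choice of members, so these shares are not independent of the choice. Among the 56, 37 were tested, of which 19 were called lower in KO1 and 21 in KO2. Among other eligible transcripts with that ratio, 1065 were tested, of which 14.5% were called lower in KO1 and 24.4% in KO2. The 40 members with a ratio from 1 to under 10 had 3 lower calls in each line, and the 21 below 1 had 1 in KO1 and 3 in KO2. Of the 20 members lower in both lines, 17 had a ratio of at least 10. Across the 102 loci the log2 ratio and the body change had a Spearman's rho of -0.47 in each line, and the WT body libraries enter both quantities. Members with a ratio of at least 10 had a median WT body level of 5.34 CPM. Whether testis tissue in the body samples had a part in these calls was not tested.

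**Figure D4:**
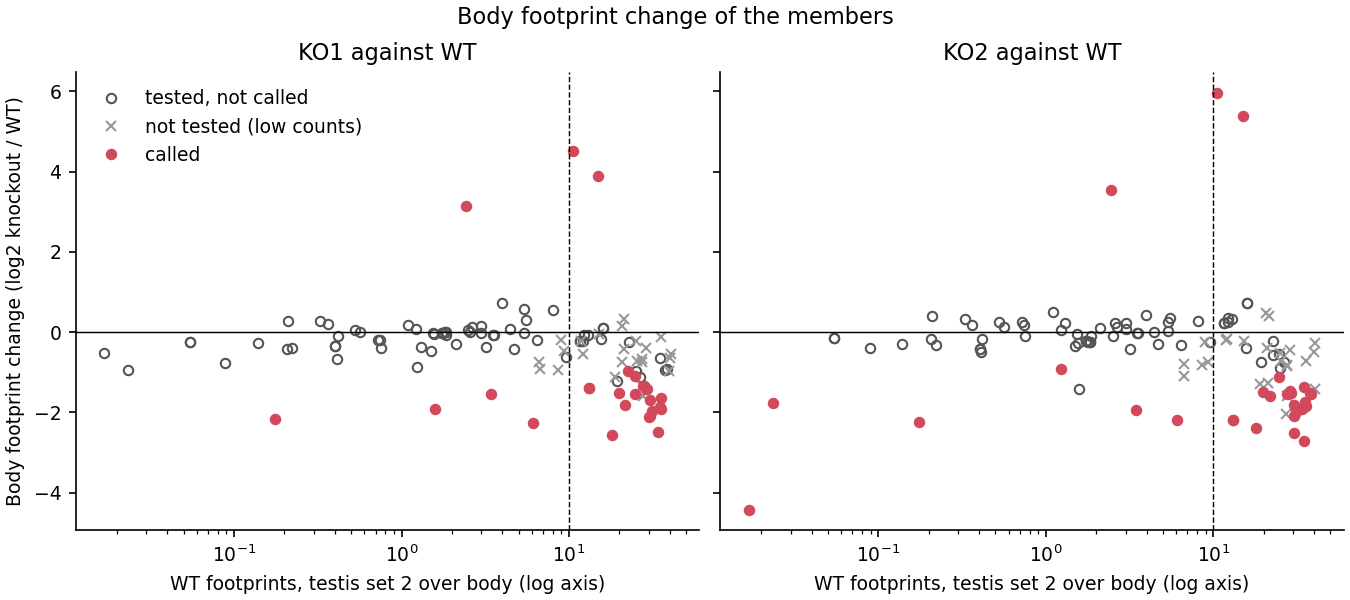
Body footprint change of each member (log2 knockout over WT) in KO1 (left) and KO2 (right) against its WT footprint ratio of testis set 2 over body (log axis), with calls of edgeR at an adjusted p under 0.05 in red and a dashed line at a ratio of 10. Most lower calls lie right of the line, and the lowest point in KO2 lies at the far left.

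Lower calls were not confined to members with that ratio. A member with a length entry of 492 had a body level above its testis level. Its body footprints measured 63.7 and 77.1 CPM in WT, 15.5 and 14.4 CPM in KO1 and 13.0 and 15.2 CPM in KO2. Its set 2 testis footprints measured 12.3 and 10.8 CPM in WT and 2.72 and 4.35 CPM in knockouts. Knockout libraries were below WT in both tissues. It was called in both lines, with edgeR log2 changes of -2.20 (adjusted p = 4.20e-05) and -2.33 (adjusted p = 1.47e-05).

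Another member, with a length entry of 363, separated the lines. Its body footprints measured 1872 and 1077 CPM in WT, 852 and 1185 CPM in KO1, and 62.2 and 73.3 CPM in KO2. In testis it was low and its WT replicates differed widely, at 0.295 and 48.4 CPM in set 1 footprints, 45.5 and 1.93 CPM in set 2 footprints, and 0 and 13.0 CPM in set 1 RNA-seq. Its place in the set rests on 1 WT library per contrast. WT replicates differed at least 3-fold, on the scale of CPM + 1, in 3 members in set 1 footprints, 2 in set 2 footprints and 2 in set 1 RNA-seq.

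In body footprints 3 members were called higher, in both lines, although they were lower in testis. They belonged to 4 members in which every knockout library was below WT in testis footprints and above WT in body footprints. The pattern was held by 0.53% of eligible transcripts, which is not a base for the 4 because the choice nearly fixed its testis part. Both knockout libraries were below both WT libraries in 116 members in set 1 footprints and in 115 in set 2 footprints. Among eligible transcripts the shares were 22.3% and 29.7%. FBtr0300942 measured 8.13 and 8.05 CPM in WT body, 257 and 12.3 CPM in KO1, and 419 and 345 CPM in KO2. In testis its footprints measured 241 and 320 CPM in WT and 51.2 and 53.7 CPM in knockouts of set 1, and 133 and 137 CPM and then 9.88 and 21.2 CPM in set 2. RNA-seq of set 1 gave 89.4 and 104 CPM in WT and 6.78 and 8.82 CPM in knockouts. The edgeR log2 change in body was 5.61 in KO2 (SE 0.942, adjusted p = 0.00388) and 4.06 in KO1 (SE 0.907, adjusted p = 0.0303). The KO1 replicates of FBtr0300942 were far apart. Without KO1 replicate 1 the change was 0.72 (adjusted p = 0.403), and with DESeq2 the KO1 call was lost (adjusted p = 0.118). Without WT replicate 1 or 2, neither line's call held, with edgeR adjusted p of 0.241 and 0.317 in KO1 and 0.0944 and 0.150 in KO2. The transcript listed next to FBtr0300942 was another of the 3.

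FBtr0080275 was the third. Its body footprints measured 4.88 and 12.5 CPM in WT, 114 and 55.7 CPM in KO1, and 70.2 and 152 CPM in KO2. All 4 knockout libraries were above both WT libraries, with edgeR log2 changes of 3.20 (SE 0.417, adjusted p = 0.00109) and 3.56 (SE 0.420, adjusted p = 0.000354), and both calls held under all alternatives run. Its testis footprints measured 33.4 and 26.1 CPM in WT and 4.88 and 8.06 CPM in knockouts of set 1, and 26.0 and 19.2 CPM and then 6.41 and 3.56 CPM in set 2. RNA-seq of set 1 gave 7.75 and 8.94 CPM in WT and 1.36 and 2.22 CPM in knockouts. The tissues thus had opposite directions for FBtr0080275. It had enough body RNA-seq for a test, and there its log2 changes were 0.06 (SE 0.382, edgeR adjusted p = 0.956) in KO1 and 0.46 (SE 0.380, adjusted p = 0.608) in KO2.

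**Figure D5:**
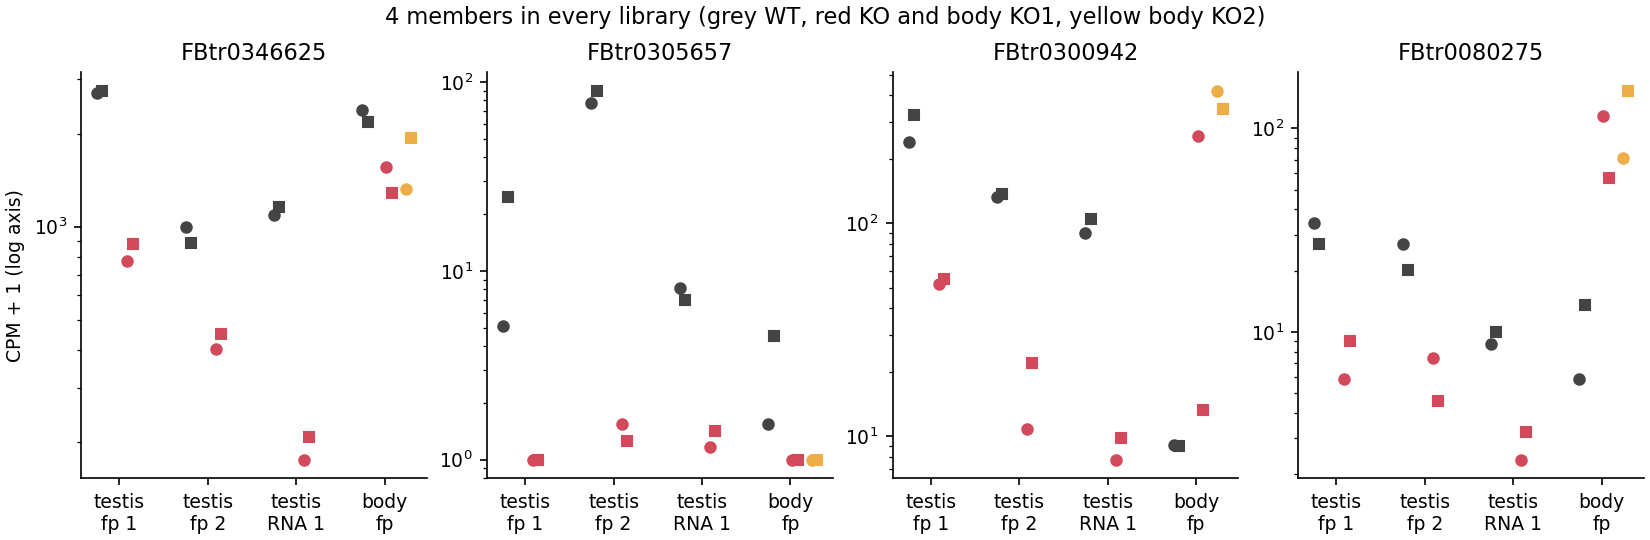
Level of 4 members (CPM + 1, log axis) in each library of testis footprints (fp) of sets 1 and 2, set 1 testis RNA-seq and body footprints, with WT in grey, testis KO and body KO1 in red, body KO2 in yellow, replicate 1 as circles and replicate 2 as squares. FBtr0300942 and FBtr0080275 lie below WT in testis and above WT in body, with 1 KO1 library of FBtr0300942 close to WT.

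RNA-seq of body could test few members. The median member had 5 counts over the 6 libraries and 19 members had 0. Of the 11 tested, edgeR called 0 in either line. The background was 3.75% higher and 1.17% lower of 1706 transcripts in KO1, and 2.75% higher and 1.11% lower in KO2. At an unadjusted p under 0.05, 2 were lower and 1 was higher in each line, and DESeq2 also called 0. Changes of the other members in body RNA-seq were not detectable at this depth.

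A further group of transcripts had fewer testis footprints in both sets but did not reach the RNA-seq threshold of -1 in set 1. Of the 415 eligible transcripts at -1 or less in footprints of both sets, 298 had an RNA-seq change above -1 in set 1, with a median of -0.04. Their footprint medians were -1.64 and -1.55, close to those of the members. In body footprints 115 of 212 tested (54.2%) were called lower in KO1 and 147 (69.3%) in KO2, against 24.7% and 29.0% of the members tested. A testis over body ratio of at least 10 was held by 83.2% of the 298 and by 47.9% of the members. In WT testis of set 1, the median log2 ratio of footprint to RNA-seq CPM was -0.57 for the 298 and 0.95 for the members. These shares are given as a description, and the difference between the groups was not tested.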

How the data were processed

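The deposited values are whole-number counts per FlyBase transcript, 1 column per library, with a further column used here as a length. Per the submitters' processing notes, CASAVA 1.8, STAR 2.7.0a and the build dm6 were used by the authors; the counting tool, use of strand and annotation release are not given in the sources used here, so overlapping or near-identical transcripts are uncertain. Of 34703 transcripts, 4363 had no length entry and were left out. In file order, a transcript whose summed count was within 5% of the last kept one was dropped, leaving 18851. CPM were computed from the totals of these, with a pseudocount of 1. Merged loci hold members within 50 lines whose counts differ by at most 0.1 in mean relative distance.

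Tests on the counts used edgeR 4.0.16 under R 4.3.3 (quasi-likelihood F-test, TMM, filterByExpr with a minimum count of 10, Benjamini-Hochberg adjustment over all transcripts tested). A transcript was called at an adjusted p under 0.05. The 3 body groups of an assay shared 1 fit. Alternatives were DESeq2 1.42.0, its size factors, other count filters, a replicate block, all transcripts, each line alone and leaving out replicates. The members, lists and comparisons were chosen with earlier results of these data known. Gene lists and cell type markers were not used, because 0 member identifiers matched the reference tables. Where no names could be paired, the rule allowed the member with the highest WT footprint level and that with the lowest mean footprint change to be named; FBtr0300942 and FBtr0080275 were named after their values were seen. Counts alone limit precision, and error from library preparation is not covered.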

Additional observations from a re-analysis of the deposited data

Results flagged for a closer look

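The knockout lines differed in body footprints at 1 member, the one with a length entry of 363, by a log2 difference of -3.94 in KO2 against KO1 (SE 0.352, edgeR adjusted p = 0.000651). Of 13840 transcripts tested, 3 were called lower and 4 higher in KO2. Both KO2 libraries were below both KO1 libraries.

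In 4 members every knockout library of testis footprints was below WT while every knockout library of body footprints was above it. The same held in 0.53% of eligible transcripts, which is not a base for the 4 because the choice nearly fixed the testis part. The difference between tissues was not tested. The 4 include the 3 members called higher in body.

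In 20 members both knockout libraries were below WT in set 1 RNA-seq and above WT in set 2 RNA-seq. The same held in 11% of eligible transcripts. The choice nearly fixed the set 1 part, which held in 116 of the 117 members and in 57.3% of eligible transcripts. The 11% is therefore not a base for the members. The difference between the sets was not tested.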

How the results depend on the processing

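The summed CPM and medians above are from plain CPM. TMM scaling shifted the median over eligible transcripts by -0.19 in set 1 footprints, by -0.07 in set 2 footprints and by 0.35 in set 1 RNA-seq. All 117 members stayed below 0 in each of the 3, and 96 stayed at -1 or less in set 1 RNA-seq. The rule then gave 109 members, 90 of them shared. It gave 127 from all transcripts (77 shared), 107 to 128 without 1 replicate, and 38 at a threshold of -1.5. The median set 2 RNA-seq change was -0.14 with TMM, -0.028 with a pseudocount of 0.5 and 0 without any 1 replicate. The median body change ranged from -0.53 to -0.27 in KO1 and from -0.43 to -0.26 in KO2 without 1 replicate.

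With DESeq2 the calls over all transcripts were 293 of set 2 RNA-seq (604 with edgeR), 282 of KO1 and 368 of KO2 body footprints (436 and 632), and 32 of body RNA-seq in each line (84 and 66). Member calls were 1 in set 2 RNA-seq and 14 lower in KO1. With a mean of at least 50 counts, calls were 240, 228, 286, 7 and 6 in the same order, and member calls were 1 in set 2 RNA-seq and 9 lower in each body line. Without a low-count filter 839 and 960 transcripts were called in body footprints. With all transcripts the calls were 1069 in set 2 RNA-seq, 678 in KO1 footprints, and 156 and 130 in body RNA-seq. With each line alone they were 960 in KO1 footprints and 31 in KO2 RNA-seq.

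Without 1 replicate, calls over all transcripts ranged from 351 to 674 in set 2 RNA-seq, 119 to 213 in KO1 footprints, 208 to 838 in KO2 footprints, 42 to 71 in KO1 RNA-seq and 52 to 66 in KO2 RNA-seq. Members called lower ranged from 7 to 16 in KO1 and 12 to 30 in KO2, members called higher from 1 to 3 and 1 to 6, and set 2 RNA-seq members from 1 to 2. The lone sample left in a group was assumed to vary like the others. The cause of these shifts was not tested, and fewer samples or transcripts cannot be told apart from the particular ones left out.

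Replicate numbers were not taken to pair samples, since replicate differences correlated between -0.28 and 0.35 over the groups tested. With a replicate block, 22 members were lower and 2 higher in KO1, 25 and 3 in KO2, and 2 were called in set 2 RNA-seq. In KO1 the call of FBtr0300942 was lost under the block (log2 change 3.30, edgeR adjusted p = 0.0524) and with a mean of at least 50 counts (4.05, adjusted p = 0.0703). Low counts kept 106 of the 117 members out of the tests of set 2 RNA-seq and as many out of those of body RNA-seq.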
